A study of Homo sapiens with 26 samples.

Results

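CDK4 and CDK6 are cyclin-dependent kinases, and CCND1, CCND2 and CCND3 encode the D-type cyclins D1, D2 and D3 that switch them on. These 5 genes were followed by name through a table of 30331 named entries. The table holds RNA levels of ZR751 tumors, an established line of hormone receptor positive, HER2 negative breast cancer cells, grown under the skin of 13 female NSG mice. Vehicle tumors (5 mice, numbered 1-2, 1-4, 1-5, 1-6 and 1-9) were taken after 3 days without the inhibitor; their treatment label reads DMSO. For 3 days the sensitive group (3 mice, numbered 6-4, 6-5 and 6-6) received the CDK4 inhibitor atirmociclib (PF-07220060) by mouth, 60 mg/kg per dose, with 2 doses a day at an interval of 7 hours. Resistant tumors (5 mice, numbered 9-3, 9-6, 9-7, 9-8 and 9-9) came from another study, in which the same dose was given for 84 to 91 days; their time label reads 2040 hours. Dosing started at a tumor volume of 150 mm3, and collection was 3 hours after the last dose. No vehicle mice of the longer study were among the samples, so resistance, time under drug and study cannot be told apart. All groups share 1 cell line and 1 immune-deficient host, so each mouse is a repeat of the same line, not another patient's cancer.

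Cyclin D pairs with CDK4 or CDK6 early in the cell cycle, and the active pair phosphorylates the retinoblastoma protein RB1 and its relatives. Phosphorylated RB1 lets go of the E2F transcription factors, which then switch on cyclin E, cyclin A and the genes of DNA replication. INK4 proteins such as p16 and p18 block the kinases, and CIP/KIP proteins such as p21 and p27 bind the cyclin-kinase pairs. In luminal breast cancer CCND1 is a target of the estrogen receptor, and drugs against CDK4 and CDK6 are given together with endocrine therapy.

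The genes lie on 4 chromosomes of the human genome (GENCODE 29 on GRCh38). CDK4 is at chr12:57747727-57756013 on the minus strand and CDK6 at chr7:92604921-92836594 on the minus strand. CCND1 is at chr11:69641087-69654474 on the plus strand, CCND2 at chr12:4273772-4305350 on the plus strand and CCND3 at chr6:41934933-42050357 on the minus strand. Promoter sequences from RefSeq (GRCh38.p14), each from 250 bases before a start site to 50 bases after it, were found for 3 of the 5 genes. The start-site windows of the 2 kinases are shown here because their RNA levels lay at opposite ends of the range of CDK genes in these tumors. Both are on the minus strand, at chr12:57752261-57752560 for CDK4 and chr7:92836524-92836823 for the first start site of CDK6. Capitals mark the 6 letters CACGTG, the E-box sequence that MYC and its relatives bind, which reads the same on both strands.
CDK4: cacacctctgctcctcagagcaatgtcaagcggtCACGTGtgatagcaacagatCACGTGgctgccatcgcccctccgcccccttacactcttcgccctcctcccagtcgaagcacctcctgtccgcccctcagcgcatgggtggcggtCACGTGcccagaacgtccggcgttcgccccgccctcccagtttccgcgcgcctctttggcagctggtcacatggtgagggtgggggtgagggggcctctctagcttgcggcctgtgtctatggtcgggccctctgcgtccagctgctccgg
CDK6: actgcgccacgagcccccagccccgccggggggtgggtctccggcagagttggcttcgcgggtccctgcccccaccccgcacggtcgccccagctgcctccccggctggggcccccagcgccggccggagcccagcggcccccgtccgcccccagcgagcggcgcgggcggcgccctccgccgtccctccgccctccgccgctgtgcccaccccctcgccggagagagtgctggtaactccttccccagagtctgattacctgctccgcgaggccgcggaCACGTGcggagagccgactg
The CDK4 window holds CACGTG 3 times, beginning 216, 196 and 101 bases before the start site, and 66% of its bases are G or C. The CDK6 window holds CACGTG 1 time, beginning 31 bases past the start site, and is 78% G or C. The windows not shown, of the second CDK6 start site and of 3 CCND3 start sites, hold no CACGTG. Among 35116 promoter windows of the same length, 7.26% hold CACGTG at all and 33 (0.094%) hold it 3 or more times. GGGCGG, the GC box, was searched on both strands and occurs 3 times in each of the 2 windows; 45% of all windows hold it. Neither window holds CCAAT (34.6% of all windows do), TATAAA (11.5%), TGACGTCA (1.85%) or the E2F letters TTTCCCGC (1.63%) and TTTGGCGC (0.652%), all searched on both strands. A match is a string of letters in a reference sequence. Binding was not measured, and a link between these letters and RNA level was not tested.

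Levels are in TPM, a gene's share of all transcripts scaled to a fixed total and corrected for gene length, so levels of different genes can be set side by side. Each mouse gave 2 libraries, A and B, which were averaged; each of the 26 libraries resembled its partner more than any library of another mouse. The files hold no read counts, so the depth is unknown, and 16914 to 17662 genes per library were above 0. The p-values set differences between groups against the spread between these mice, whose cages and dosing days the labels do not give. Markers of luminal breast cells (EPCAM, KRT8, KRT18, KRT19, ESR1, GATA3, FOXA1 and CDH1) were each at 61.1 TPM or more in every tumor. Of the markers of other cells, 1 of 9 for fibroblasts, 0 of 6 for endothelium, 5 of 8 for leukocytes, 2 of 5 for basal or myoepithelial cells and 1 of 4 for adipocytes passed the filter on low values. The summed leukocyte markers lay at 4.40 to 8.08 TPM in vehicle, 6.76 to 9.32 in sensitive and 9.05 to 15.99 in resistant tumors, with AIF1 and TYROBP listed at 0 throughout. Over all mice CD68 held 1.645 to 10.15 TPM and LYZ 0.215 to 4.65, while PTPRC held at most 0.015 TPM. The summed basal markers lay at 5.00 to 16.9, 8.05 to 20.3 and 4.56 to 5.44 TPM, and the adipocyte markers at 0.445 to 1.17, 1.03 to 1.70 and 0.325 to 0.465 TPM, with ADIPOQ and LEP listed at 0. Both sums were lower in every resistant than in every sensitive tumor. The fibroblast sum overlapped between groups (4.58 to 13.3 TPM over all tumors), and the endothelial sum lay at 0.315 to 0.740, 0.250 to 0.785 and 0.755 to 1.14 TPM. Most of the fibroblast sum was COL1A1, at 4.155 to 12.73 TPM. These are values of human genes, the labels do not say how mouse reads were handled, and the part of such cells in the results was not tested. The tumors were grown from the human ZR751 line alone, so these values may be RNA of the tumor cells or mouse reads. Which of these holds was not tested. For any kind of cell in a bulk tumor, fewer cells and less RNA per cell cannot be told apart.

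CDK4, the target of the drug, was among the most abundant and least variable of the genes studied here. Vehicle tumors held 276, 279, 278, 330 and 282 TPM in mice 1-2, 1-4, 1-5, 1-6 and 1-9. Sensitive tumors held 267, 248 and 275 TPM in mice 6-4, 6-5 and 6-6, and resistant tumors held 261, 259, 258, 239 and 258 TPM in mice 9-3, 9-6, 9-7, 9-8 and 9-9. Vehicle mouse 1-6 stood above the other 4 of its group and resistant mouse 9-8 below the other 4 of its own. The means were 289 ± 23.0 (SD, n = 5), 264 ± 13.6 (n = 3) and 255 ± 8.89 TPM (n = 5), which placed CDK4 at rank 493, 479 and 520 among all entries. Every sensitive and every resistant mouse was below every vehicle mouse, while sensitive and resistant mice overlapped. The gap from sensitive to vehicle mice was narrow, with 274.665 TPM in mouse 6-6 and 275.51 TPM in mouse 1-2. Their single libraries overlapped, with 276.67 TPM in sensitive library 6-6A and 269.34 TPM in vehicle library 1-5A. Groups without overlap were found for 21.8% of all genes tested in sensitive versus vehicle (16.4% lower), 30.4% in resistant versus sensitive (18.1% lower) and 27.3% in resistant versus vehicle tumors (20.6% lower).

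The difference in CDK4 level between groups was small and close to that of the median gene. Log2 changes below are differences of mean log2(TPM + 1) from a limma model of all 14079 genes that passed the filter. They are given relative to the median gene of a comparison. That gene's own change was -0.07 from vehicle to sensitive, -0.05 from sensitive to resistant and -0.14 from vehicle to resistant. Each limma SE and adjusted p belongs to the fitted change, before the median was taken off, and does not test the relative value beside it. Calls were made where the adjusted p was under 0.05, which took 15.7% of all genes in sensitive versus vehicle (3.16% higher, 12.6% lower), 21.1% in resistant versus sensitive (9.56% higher, 11.6% lower) and 44% in resistant versus vehicle tumors (11.5% higher, 32.5% lower). That split rests on the scaling: higher against lower calls were 445 and 1767, 1346 and 1631, and 1624 and 4570 in the 3 comparisons, and 771 and 1066, 1713 and 1335, and 2540 and 2439 with median-of-ratios scaling. CDK4 differed by -0.06 ± 0.07 (SE) in sensitive versus vehicle tumors (limma, Benjamini-Hochberg adjusted p = 0.217) and by -0.00 ± 0.07 in resistant versus sensitive tumors (adjusted p = 0.671). In resistant versus vehicle tumors the fitted change was -0.17 ± 0.06 (adjusted p = 0.0278), and relative to the median gene it was -0.04. That call rested on the scaling and on single mice. The adjusted p was 0.790 with median-of-ratios scaling, 0.379 with quantile normalization, 0.104 with A libraries alone, 0.0530 without vehicle mouse 1-6 and 0.0677 without resistant mouse 9-8. The SD over all 13 mice was 0.112 on the log2 scale, and only 5.43% of the genes tested had a smaller one; the median gene had 0.230.

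CDK6, the sister kinase, was near the bottom of the measured range. Vehicle tumors held 0.390, 0.155, 0.030, 0.240 and 0.075 TPM in the order of mice above, sensitive tumors 0.150, 0.225 and 0.180, and resistant tumors 0.395, 0.120, 0.320, 0.180 and 0.160. All groups overlapped, and the 2 libraries of resistant mouse 9-6 alone spanned 0.05 to 0.19 TPM. The means were 0.178 ± 0.143 (SD, n = 5), 0.185 ± 0.0378 (n = 3) and 0.235 ± 0.117 TPM (n = 5). CDK6 did not pass the filter of a mean of 1 TPM in 3 mice, so it was tested on its own by exact two-sided permutation over mice. Mean log2(TPM + 1) differed by 0.016 between sensitive and vehicle (exact p = 0.911), by 0.054 between resistant and sensitive (exact p = 0.5) and by 0.070 between resistant and vehicle tumors (exact p = 0.484). Over these 3 tests the adjusted p values were 0.911, 0.75 and 0.75, and the smallest exact p the designs allow is 0.0179 for 5 against 3 mice and 0.00794 for 5 against 5. No difference in CDK6 was detected, and the ratio of CDK4 to CDK6 TPM ran from 660 to 9256 over the 13 mice.

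**Figure D1:**
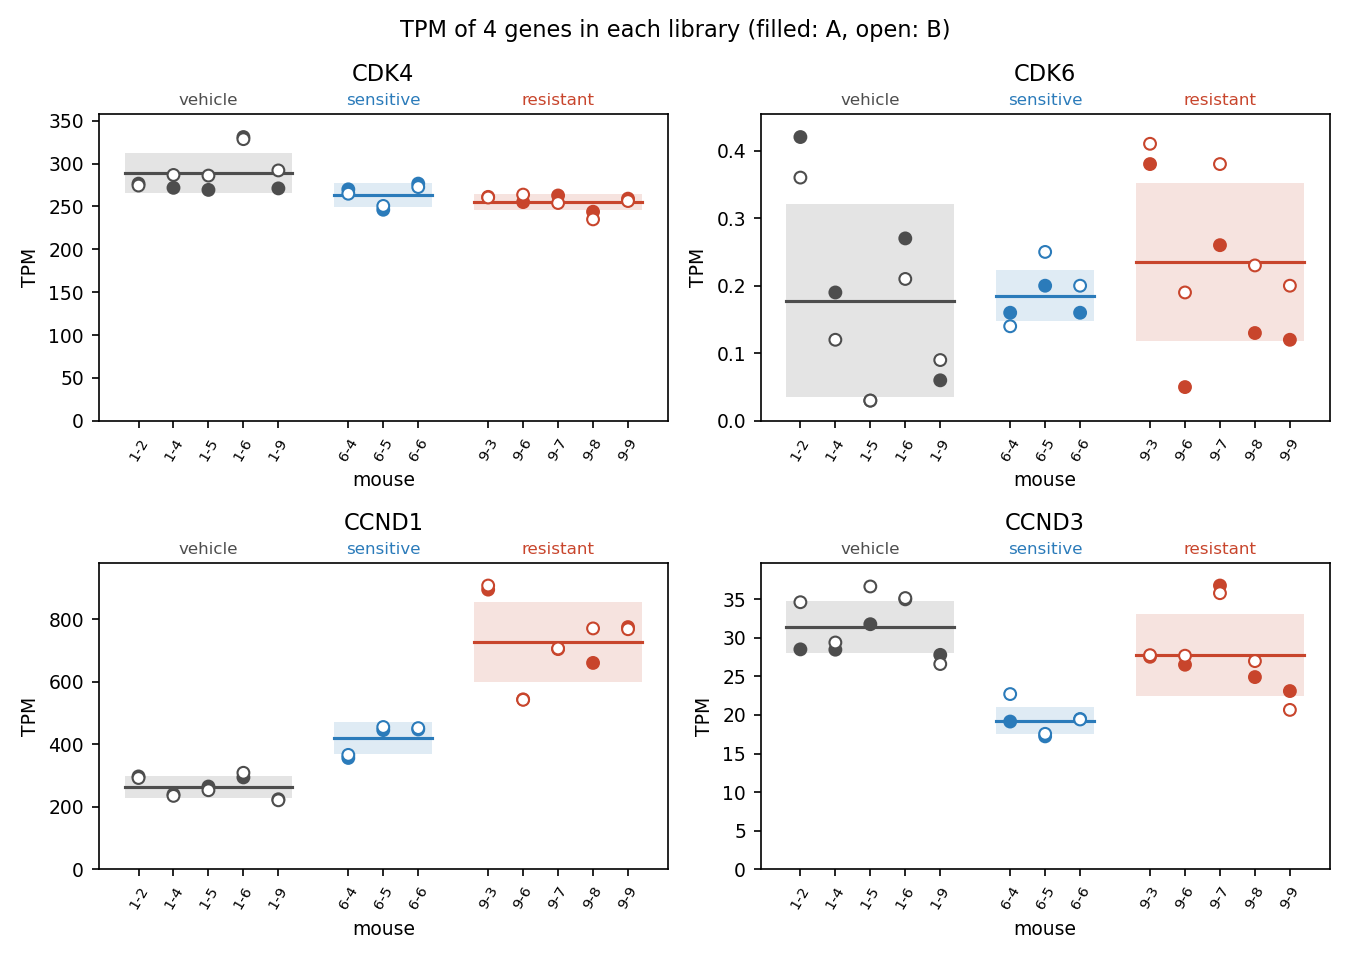
TPM of CDK4, CDK6, CCND1 and CCND3 in each library, by mouse on the x axis, with library A filled and library B open; each panel has its own TPM axis from 0. Lines are group means over mice (n = 5, 3 and 5) and bands are ± SD; CCND1 stands at 263, 420 and 727 TPM in vehicle, sensitive and resistant tumors, while CDK4 stays between 239 and 330 TPM in every mouse.

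CCND1, the gene for cyclin D1, rose after 3 days of atirmociclib and was higher again in resistant tumors. Vehicle tumors held 295, 237, 259, 301 and 222 TPM in mice 1-2, 1-4, 1-5, 1-6 and 1-9. Sensitive tumors held 361, 450 and 449 TPM in mice 6-4, 6-5 and 6-6, and resistant tumors held 901, 543, 705, 715 and 771 TPM in mice 9-3, 9-6, 9-7, 9-8 and 9-9. The 3 groups did not overlap at all: the highest vehicle mouse was below the lowest sensitive mouse, and the highest sensitive mouse was below the lowest resistant one. The means were 263 ± 34.6 (SD, n = 5), 420 ± 51.2 (n = 3) and 727 ± 129 TPM (n = 5), and CCND1 went from rank 543 to rank 277 and rank 172 among all entries. Of all genes tested, 5.37% were higher without overlap in sensitive versus vehicle, 12.3% in resistant versus sensitive and 6.63% in resistant versus vehicle tumors.

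The mean of CCND1 was 1.6 times that of vehicle in sensitive tumors, and the log2 change was 0.75 ± 0.14 (SE; limma, adjusted p = 0.00621). Between sensitive and resistant tumors the mean rose 1.73-fold, with a log2 change of 0.82 ± 0.14 (adjusted p = 0.00291). Resistant tumors held 2.76 times the vehicle mean, with a log2 change of 1.59 ± 0.12 (adjusted p = 2.33e-06). CCND1 was called in all 3 comparisons under each of the 26 alternatives. The second change minus the first was 0.07 ± 0.26 (adjusted p = 0.849), so a difference in size between the 2 steps was not detected. Over all genes tested, 10.9% were called for this difference of steps, and 7.81% were called with a positive difference.

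CCND3, the gene for cyclin D3, took another course: lower after 3 days and near the vehicle level in resistant tumors. Vehicle tumors held 31.6, 28.9, 34.2, 35.1 and 27.2 TPM in mice 1-2, 1-4, 1-5, 1-6 and 1-9. Sensitive tumors held 20.9, 17.4 and 19.4 TPM in mice 6-4, 6-5 and 6-6, and resistant tumors held 27.6, 27.1, 36.3, 25.9 and 21.9 TPM in mice 9-3, 9-6, 9-7, 9-8 and 9-9. Sensitive mice were below all vehicle and all resistant mice, whereas resistant and vehicle mice overlapped. Of the resistant mice, 1 (9-7) was above the vehicle range and 3 were below it. Among all genes tested, 16.4% were lower without overlap in sensitive versus vehicle and 12.3% higher without overlap in resistant versus sensitive tumors. The means were 31.4 ± 3.36 (SD, n = 5), 19.3 ± 1.78 (n = 3) and 27.8 ± 5.26 TPM (n = 5).

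In sensitive versus vehicle tumors CCND3 fell by 0.60 ± 0.13 on the log2 scale (SE; limma, adjusted p = 0.00388), and this call was made under each of the 26 alternatives. It rose by 0.54 ± 0.13 from sensitive to resistant tumors (adjusted p = 0.0197). The rise was not called with B libraries alone (0.49, adjusted p = 0.0531), without sensitive mouse 6-5 (0.49, adjusted p = 0.0918) or without sensitive mouse 6-6 (0.55, adjusted p = 0.0503). In resistant versus vehicle tumors the difference was -0.05 ± 0.12 (adjusted p = 0.216), and without resistant mouse 9-7 it was -0.14 (adjusted p = 0.0351). The second change minus the first was 1.14 ± 0.24 (adjusted p = 0.00693), that is, the 2 steps differed in CCND3; without sensitive mouse 6-5 this was 1.04 (adjusted p = 0.0665).

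CCND2, the gene for cyclin D2, was listed at 0 TPM in all 26 libraries, so no fold or test is given for it. It was one of 8969 entries (29.6%) at 0 in every library. CCND2 shares 989 of its 7157 exon bases with AC008012.1, a protein-coding gene on the same strand that is not among the entries. What this overlap did to the listed 0 was not tested.

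**Figure D2:**
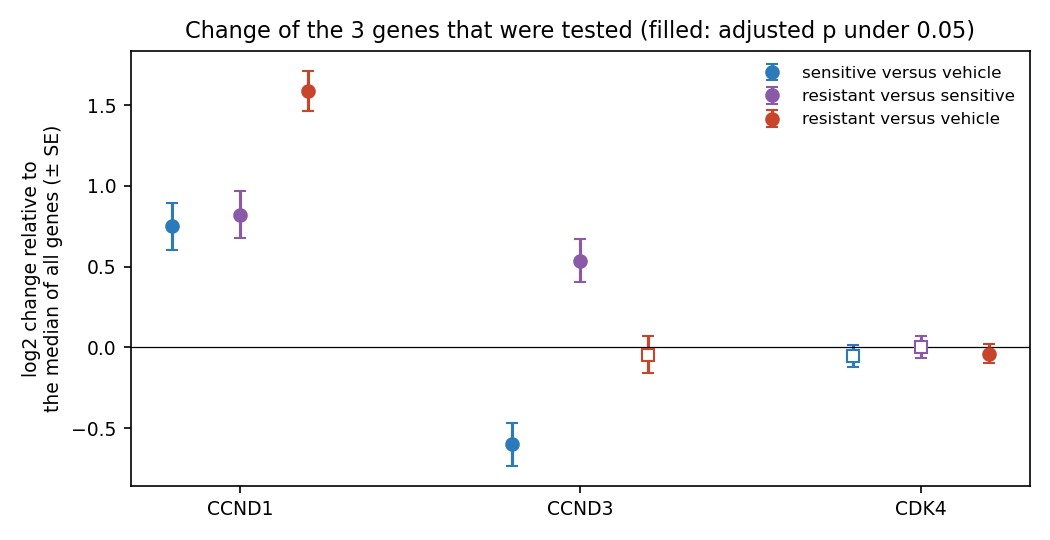
Log2 change of CCND1, CCND3 and CDK4 relative to the median of all genes, with SE from limma, in the 3 comparisons; filled circles mark an adjusted p under 0.05 and open squares those not called. CCND1 is above 0 in all comparisons (0.75, 0.82 and 1.59), CCND3 is at -0.60 and then 0.54, and CDK4 lies within 0.06 of 0, its filled point resting on the fitted change of -0.17.

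The balance of the D-type cyclins shifted toward cyclin D1 while their sum grew. Summed TPM of the 3 cyclin genes was 294 ± 37.3 in vehicle (SD, n = 5), 440 ± 49.8 in sensitive (n = 3) and 755 ± 129 in resistant tumors (n = 5). CCND3 made up 10.7 ± 0.730% of that sum in vehicle, 4.45 ± 0.917% in sensitive and 3.78 ± 0.994% in resistant tumors, and CCND1 the rest. The CCND3 share of every treated mouse was below that of every vehicle mouse, and sensitive and resistant mice overlapped. The level of CCND3 itself was higher in resistant than in sensitive tumors, and its share was not, as CCND1 was then at its highest.

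Set against its kinase partner, CCND1 went from slightly below CDK4 to well above it. The ratio of CCND1 to CDK4 TPM was 0.911 ± 0.105 in vehicle tumors (SD, n = 5, range 0.790 to 1.07). It was 1.6 ± 0.233 in sensitive tumors (n = 3, range 1.35 to 1.81) and 2.85 ± 0.498 in resistant tumors (n = 5, range 2.09 to 3.45). The 3 ranges did not overlap. These are ratios of RNA; the proteins were not measured.

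**Figure D3:**
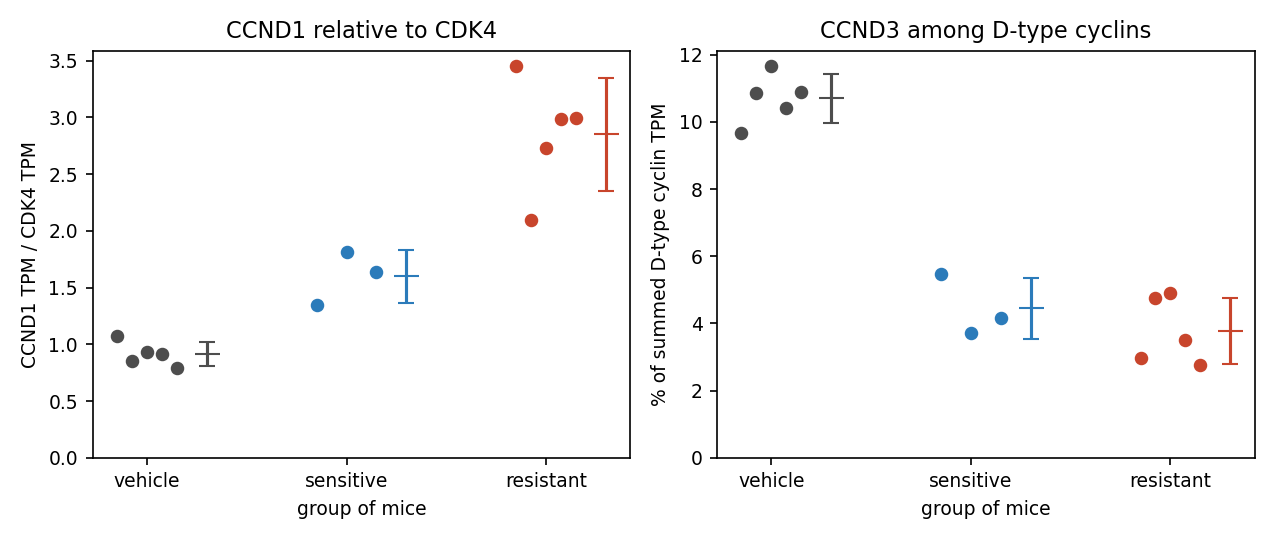
Left, the ratio of CCND1 to CDK4 TPM per mouse; right, CCND3 as a percent of the summed TPM of CCND1, CCND2 and CCND3. Points are mice (n = 5, 3 and 5) and bars are mean ± SD: the ratio climbs from 0.911 to 1.6 and 2.85, and the CCND3 share is 10.7%, 4.45% and 3.78%.

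Variation between mice was of different size for the 3 genes. The SD between mice of a group was 0.083 for CDK4, 0.222 for CCND1 and 0.195 for CCND3 on the log2 scale, against 0.174 for the median gene. The SD between the libraries of a mouse was 0.037, 0.050 and 0.091, below the 0.112 of the median gene in each case. Over all 13 mice the SD of CCND1 was 0.694, larger than that of 94.6% of the genes tested, and the SD of CCND3 was 0.322, larger than that of 72.2%. Across mice with the group means taken off, Pearson's r was 0.210 between CCND1 and CDK4, 0.057 between CCND1 and CCND3 and 0.370 between CDK4 and CCND3. These values describe 13 mice, whose libraries share their scaling, and carry no test.

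Within their gene families the members held fixed or rising ranks, which depend on the other genes of the family as well. CDK4 was the highest of 21 CDK genes in all 3 groups, with 31.2%, 31.2% and 30.5% of their summed TPM. Next came CDK16, a kinase of the PCTAIRE branch, at 130 ± 8.80 TPM in vehicle and 120 ± 5.20 TPM in resistant tumors (SD, n = 5 each), and CDK10 at 113 ± 6.29 TPM in sensitive tumors (n = 3). CDK6 was 20th of the 21 in each group. Among 27 cyclin genes CCND1 was the 2nd in vehicle tumors, behind CCNI, an atypical cyclin, at 400 ± 15.2 TPM. In sensitive tumors CCNI held 454 ± 7.25 TPM, and the highest CCND1 mouse (450 TPM) reached its range. CCND1 was the 1st in resistant tumors, where CCNI held 345 ± 27.7 TPM and every mouse had more CCND1 than any had CCNI. The CCND1 share of summed cyclin TPM was 18.3%, 29.4% and 45.2% in vehicle, sensitive and resistant tumors. CCND3 was 13th, 11th and 10th, with 2.19%, 1.35% and 1.73% of that sum. Its rank rose while its share stayed below that in vehicle tumors.

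The genes around the kinase were taken from lists by role, and the counts below read against the percentages of all genes given above. By construction the median of all genes is 0 on the relative scale. As above, each SE and adjusted p is that of the fitted change.

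Most CDK inhibitor genes were lower in resistant than in vehicle tumors. None of the 7 was called higher than in vehicle tumors. Of all genes only 3.16% were called higher in sensitive and 11.5% in resistant tumors, so a count of 0 is near that share. In sensitive versus vehicle tumors 3 of the 7 inhibitor genes were lower (12.6% of all genes), with a median of -0.37. In resistant versus vehicle tumors it was 5 of 7 (32.5% of all genes), with a median of -0.53. CDKN2C, which encodes the INK4 protein p18, went from 19.6 ± 1.26 TPM (SD, n = 5) to 2.77 ± 0.211 (n = 3) and 3.92 ± 0.902 TPM (n = 5). It fell by 2.40 ± 0.13 in sensitive and by 1.95 ± 0.11 in resistant tumors on the log2 scale against vehicle (SE; adjusted p = 1.97e-08 and 5.87e-08). CDKN2D, which encodes p19, fell by 1.4 ± 0.19 in sensitive tumors (adjusted p = 9.90e-05) and by 0.96 ± 0.16 in resistant tumors (adjusted p = 1.58e-04). CDKN2A, the p16 gene, was at 15.2 ± 5.24, 12.9 ± 1.91 and 6.36 ± 2.68 TPM and fell by 1.01 ± 0.25 in resistant versus vehicle tumors (adjusted p = 0.00253). The p27 gene CDKN1B fell by 0.41 ± 0.11 in resistant versus vehicle tumors (adjusted p = 0.00185), and its call in sensitive tumors (adjusted p = 0.0336) was lost without sensitive mouse 6-5 (adjusted p = 0.177). Mice of the p21 gene CDKN1A spread widely, at 82.5 ± 32.3, 43.3 ± 11.7 and 63.5 ± 13.4 TPM, and it was not called in any comparison. From sensitive to resistant tumors CDKN2C was called higher and CDKN2A and CDKN2B lower, but each of these 3 calls was lost on leaving out 1 sensitive mouse. Without sensitive mouse 6-5 the adjusted p was 0.157 for CDKN2C and 0.0865 for CDKN2A, and without sensitive mouse 6-4 it was 0.145 for CDKN2B. With A libraries alone it was 0.128 for CDKN2C and 0.0527 for CDKN2B. With B libraries alone it was 0.122 for CDKN2C and 0.0954 for CDKN2A.

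Among genes that fold and activate CDK4 protein, the HSP90 genes were lower in resistant tumors and the co-chaperone gene was not called. CDC37, the co-chaperone that hands kinases to HSP90, was at 203 ± 21.0, 204 ± 27.9 and 204 ± 9.21 TPM and was not called in any comparison. The HSP90 gene HSP90AA1 went from 2410 ± 354 TPM in vehicle to 1866 ± 225 in sensitive and 1272 ± 150 in resistant tumors. It fell by 0.51 ± 0.12 from sensitive to resistant tumors (adjusted p = 0.00758) and by 0.78 ± 0.11 against vehicle (adjusted p = 2.64e-05). HSP90AB1 held 1172 ± 53.8, 1140 ± 74.1 and 853 ± 58.2 TPM and fell by 0.37 ± 0.07 from sensitive to resistant tumors (adjusted p = 0.00171). Of the 6 genes in this list 0 were called higher in any comparison (of all genes: 3.16%, 9.56% and 11.5%). Those called lower were 2 in sensitive versus vehicle, 2 in resistant versus sensitive and 4 in resistant versus vehicle tumors. Of all genes 12.6%, 11.6% and 32.5% were lower, and the medians of the list were -0.11, -0.02 and -0.22. The 2 in sensitive tumors, CCNH and MNAT1, are partners of the CDK-activating kinase; without sensitive mouse 6-5 their adjusted p was 0.0841 and 0.0730. CCNH was not called in resistant versus vehicle tumors with median-of-ratios scaling (adjusted p = 0.225).

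The genes of cyclin D turnover include ubiquitin ligase subunits and kinases that act on D-type cyclins. AMBRA1, the substrate receptor that marks D-type cyclins for destruction, was at 15.9 ± 1.03, 16.8 ± 0.418 and 15.6 ± 1.22 TPM and was not called in any comparison. Of 10 genes, 1 was higher and 0 lower in sensitive versus vehicle tumors, and 0 higher and 1 lower in resistant versus vehicle tumors, with medians of 0.13 and 0.02. The lower one was GSK3B, a kinase that marks cyclin D1 for export and breakdown, which fell by 0.25 ± 0.08 in resistant versus vehicle tumors (adjusted p = 0.00213). The higher one was FBXW8, a ubiquitin ligase subunit, at 12.4 ± 0.960 TPM in vehicle and 15.5 ± 0.360 TPM in sensitive tumors (adjusted p = 0.0335). That call was lost without sensitive mouse 6-5 (adjusted p = 0.110) and with either library set alone. From sensitive to resistant tumors 0 were higher and 3 lower (FBXO31, FBXW8 and GSK3B), with a median of -0.06, and none of these was called without sensitive mouse 6-4 (adjusted p = 0.0607, 0.0595 and 0.0812).

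Genes that encode substrates of CDK4, RB1 and its pocket protein relatives among them, were lower in resistant than in vehicle tumors. RB1 itself was at 32.4 ± 1.39, 23.0 ± 2.62 and 22.9 ± 2.51 TPM. It fell by 0.41 ± 0.10 in sensitive versus vehicle tumors (adjusted p = 0.00458) and by 0.36 ± 0.09 in resistant versus vehicle tumors (adjusted p = 5.16e-04), and it differed by 0.04 ± 0.10 between sensitive and resistant tumors (adjusted p = 0.961). FOXM1, a transcription factor of mitosis that CDK4 phosphorylates, went from 142 ± 21.3 TPM to 11.2 ± 4.13 and 37.5 ± 14.4 TPM. Its log2 change was -3.53 ± 0.30 in sensitive versus vehicle tumors (adjusted p = 1.26e-06) and 1.68 ± 0.30 from sensitive to resistant tumors (adjusted p = 0.00257). In all, 3 of 5 genes were lower in sensitive and 5 of 5 in resistant versus vehicle tumors, with medians of -0.41 and -0.63, and each of these 8 calls was made under all 26 alternatives. In the step from sensitive to resistant tumors 1 was higher (FOXM1) and 2 lower (RBL2 and SMAD3), with a median of 0.04; without sensitive mouse 6-4 the adjusted p was 0.202 for RBL2 and 0.0878 for SMAD3.

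Genes that E2F switches on were far lower after 3 days, and most of them were higher in resistant than in sensitive tumors. Of 12 genes 11 were lower in sensitive versus vehicle tumors, with a median log2 change of -2.28, and E2F3 was not called. From sensitive to resistant tumors 8 of 12 were higher and 0 lower, with a median of 0.92, and 7 of 12 were lower in resistant than in vehicle tumors, with a median of -0.68. E2F2, CDK2, CDC25A, CCNA2 and TYMS were in both counts, while CCNE1 and CCNE2 were lower than in vehicle and not called from sensitive to resistant tumors. CCNA2, the cyclin A gene, was at 31.3 ± 7.19, 1.51 ± 0.339 and 4.24 ± 1.26 TPM, with a log2 change of -2.50 ± 0.19 in resistant versus vehicle tumors (adjusted p = 3.94e-07). CCNE2, a cyclin E gene, was at 13.3 ± 1.17, 1.41 ± 0.320 and 3.13 ± 1.79 TPM. CDK2, the kinase that cyclin E and cyclin A use, was at 34.5 ± 1.69, 18.2 ± 2.59 and 26.8 ± 3.35 TPM and rose by 0.58 ± 0.11 from sensitive to resistant tumors (adjusted p = 0.00564). MYBL2, a transcription factor of the G1 to S transition, was at 185 ± 29.3 TPM in vehicle, 28.0 ± 8.81 in sensitive and 155 ± 45.6 in resistant tumors. MYBL2 was not called in resistant versus vehicle tumors (-0.16 ± 0.20, adjusted p = 0.252). Of the 11 calls in sensitive tumors 9 were made under all 26 alternatives; without sensitive mouse 6-5 the adjusted p was 0.0577 for E2F1 and 0.140 for MCM2. Without that mouse it was 0.0737 for E2F2 and 0.163 for CDC25A from sensitive to resistant tumors. In resistant versus vehicle tumors CDK2 was not called with median-of-ratios scaling (adjusted p = 0.0868).

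Genes listed as regulators of CCND1 transcription moved in both directions while the estrogen receptor gene was not called. Whether any of them acted on CCND1 in these tumors was not tested. ESR1 was at 113 ± 59.0, 104 ± 26.8 and 98.6 ± 20.3 TPM, with large differences between vehicle mice (61.1 to 193 TPM). PGR, the progesterone receptor gene and a classic estrogen target, was at 22.5 ± 9.38, 69.2 ± 32.3 and 104 ± 33.4 TPM. It rose by 2.32 ± 0.33 in resistant versus vehicle tumors (adjusted p = 1.88e-04). Its rise in sensitive tumors (1.63 ± 0.38, adjusted p = 0.0136) was not called without sensitive mouse 6-5 (adjusted p = 0.0992) or 6-6 (adjusted p = 0.0675). STAT3, a transcription factor of cytokine signalling, was at 66.7 ± 3.73, 90.7 ± 7.22 and 90.6 ± 9.58 TPM. It rose by 0.51 ± 0.09 in sensitive (adjusted p = 0.00433) and by 0.57 ± 0.08 in resistant tumors against vehicle (adjusted p = 6.09e-04), and differed by 0.04 ± 0.09 between them (adjusted p = 0.971).

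From sensitive to resistant tumors FOS and EGR1, both immediate early genes, were the 2 listed regulators called higher. A link of either gene to the level of CCND1 was not tested. FOS, the partner of JUN in the AP-1 factor, was at 1.32 ± 0.502, 3.66 ± 3.08 and 55.7 ± 51.4 TPM, and its resistant mice ran from 18.7 to 132 TPM. EGR1, a zinc finger factor induced by growth factors, was at 1.33 ± 0.529, 3.28 ± 1.06 and 43.2 ± 37.7 TPM. The log2 changes from sensitive to resistant tumors were 3.42 ± 0.61 for FOS (adjusted p = 0.00255) and 2.95 ± 0.57 for EGR1 (adjusted p = 0.00393). MYC was at 162 ± 27.1, 238 ± 30.8 and 197 ± 24.0 TPM and rose by 0.63 ± 0.14 in sensitive versus vehicle tumors (adjusted p = 0.0142). That rise was not called without sensitive mouse 6-5 (adjusted p = 0.0911) or 6-6 (adjusted p = 0.0718). In resistant versus vehicle tumors MYC differed by 0.42 ± 0.12 (limma, adjusted p = 0.0659). That p tests the fitted change, which was smaller, as the median gene changed by -0.14. GATA3, a luminal transcription factor, was at 417 ± 35.7, 310 ± 62.7 and 264 ± 23.5 TPM and fell by 0.52 ± 0.10 in resistant versus vehicle tumors (adjusted p = 2.36e-04). Of all 15 regulators, 3 were higher and 1 lower in sensitive versus vehicle, 2 higher and 0 lower in resistant versus sensitive, and 7 higher and 3 lower in resistant versus vehicle tumors. The medians were 0.09, 0.05 and 0.42. JUN and STAT5A were not called in resistant versus vehicle tumors without resistant mouse 9-6 (adjusted p = 0.0988 and 0.0632), nor was FOXA1 with median-of-ratios scaling (0.243). Other mice mattered too: without vehicle mouse 1-4 the adjusted p was 0.0773 for JUN and 0.0508 for STAT5A. With B libraries alone it was 0.0719 for JUN. GATA3 was not called in sensitive tumors without mouse 6-5 (adjusted p = 0.139).

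**Figure D4:**
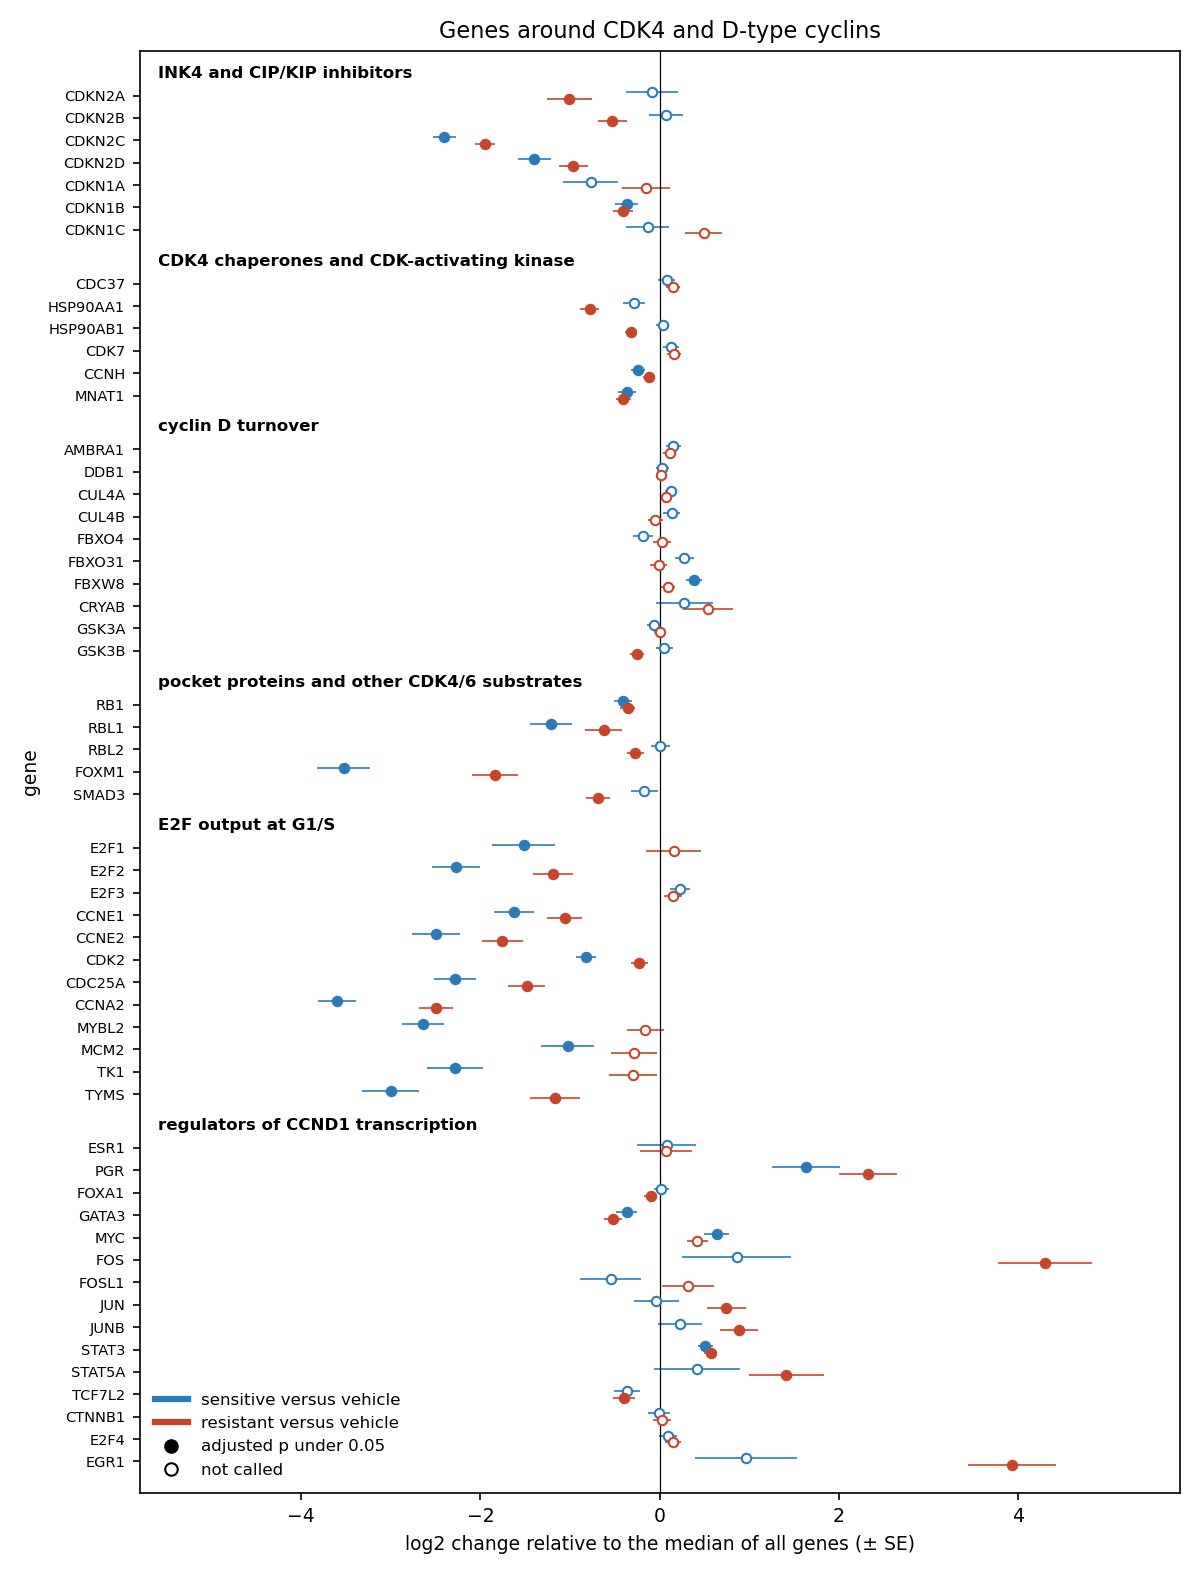
Log2 change of each gene of 6 lists relative to the median of all genes, with SE from limma, for sensitive (blue) and resistant (red) versus vehicle tumors; filled points have an adjusted p under 0.05. E2F output lies far to the left in sensitive tumors (median -2.28) and closer to 0 in resistant ones (median -0.68), while FOS and EGR1 lie far to the right in resistant tumors.

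The genes next to CCND1 and CDK4 on their chromosomes were called higher, lower or not at all. Of 9 listed neighbours of CCND1, 6 passed the filter, and FGF3 and FGF4 were listed at 0 in all libraries. MYEOV, the listed gene just before CCND1, was at 0.703 ± 0.448, 2.91 ± 1.96 and 5.65 ± 1.31 TPM and rose by 2.11 ± 0.28 in resistant versus vehicle tumors (adjusted p = 1.25e-04). With a vehicle median of 0.745 TPM, MYEOV passed the filter of 1 TPM in 3 mice only through treated mice. Its calls against vehicle are limited by that selection. Its call in sensitive tumors (adjusted p = 0.0406) was lost without sensitive mouse 6-5 (adjusted p = 0.202) and in 10 other alternatives. FADD, an adaptor of death receptors, was at 117 ± 8.80, 116 ± 3.16 and 135 ± 4.57 TPM and rose by 0.34 ± 0.06 in resistant versus vehicle tumors (adjusted p = 0.0113). ANO1, a chloride channel gene, was called lower there (-0.78 ± 0.27, adjusted p = 0.0142), and PPFIA1 and CTTN were not called. ORAOV1, called LTO1 in GENCODE, lies on the opposite strand and shares 497 of the 4830 exon bases of CCND1. It was at 41.1 ± 2.61, 41.5 ± 1.03 and 42.2 ± 4.04 TPM and was not called in any comparison. The labels do not say if the counting used strand.

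TSPAN31, a tetraspanin gene on the opposite strand of CDK4, shares 1369 of the 3168 exon bases of CDK4, so reads of the 2 genes may have been split between them. It was at 130 ± 16.2, 133 ± 7.25 and 128 ± 8.78 TPM and was not called in any comparison. Of 8 listed neighbours of CDK4, 7 passed the filter. Against vehicle, resistant tumors had 2 higher (CYP27B1 and AVIL) and 2 lower (AGAP2 and TSFM); AGAP2, next in line after TSPAN31, fell by 0.80 ± 0.13 (adjusted p = 1.13e-04). Without resistant mouse 9-6 the adjusted p of AVIL was 0.0647, with B libraries alone that of CYP27B1 was 0.0517, and with median-of-ratios scaling that of TSFM was 0.341. For CCND3, 4 of 6 neighbours passed; in resistant versus vehicle tumors BYSL, MED20 and TAF8 were lower and 0 were higher, while CCND3 itself was not called. With median-of-ratios scaling the adjusted p was 0.127 for BYSL and 0.0702 for TAF8.

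**Figure D5:**
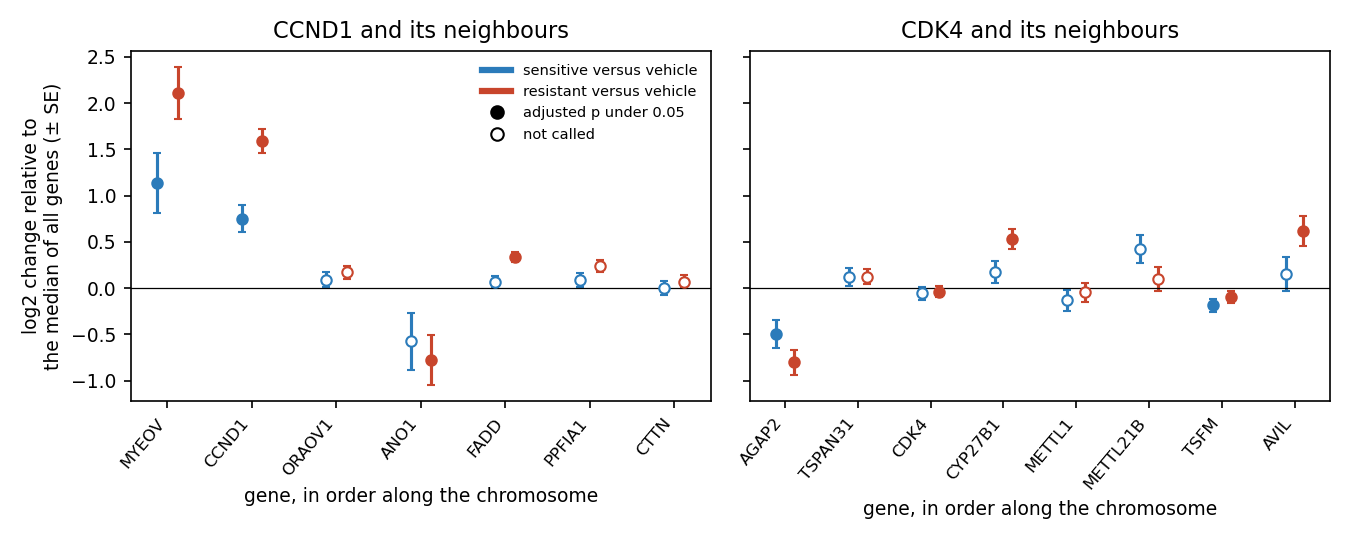
Log2 change relative to the median of all genes, with SE from limma, of CCND1 and CDK4 and their neighbours in order along the chromosome, for sensitive (blue) and resistant (red) versus vehicle tumors; filled points have an adjusted p under 0.05. CCND1 (1.59 in resistant tumors) stands beside ORAOV1 near 0 (0.17), and the CDK4 neighbours lie on both sides of 0.

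The genes whose log2 levels followed each member most closely over the 13 mice were also listed, with likeness measured by Pearson's r. Nearest to CCND1 were ALDH3B1 (0.963), SERPINA11 (0.956), AL360260 (0.952), SEMA3B (0.949) and AMZ1 (0.949). SEMA3B, which encodes a secreted semaphorin, was at 4.28, 17.5 and 103 TPM in the means of vehicle, sensitive and resistant tumors. Nearest to CDK4 were ILF2 (0.900), RUVBL1 (0.895), FDPS (0.893), PTBP1 (0.893) and MMAB (0.892), all with their highest mean in vehicle tumors. Nearest to CCND3 were YWHAH (0.946), EXO5 (0.939), DQ786325 (0.936), HNRNPAB (0.932) and ATAD3A (0.926). These rankings follow the differences between groups. With group means taken off, the nearest genes were TMEM189 for CCND1 (0.910), ERI3 for CDK4 (0.926) and TAX1BP3 for CCND3 (0.948). No gene was among the first 5 of both lists of a member. All of these values are descriptions over 13 mice that share their scaling.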

How the data were processed

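RNA of ZR751 tumors was measured in 13 mice by bulk RNA sequencing, with 2 libraries, A and B, per mouse. The authors deposited 1 table of TPM values (transcript shares scaled to a fixed total) for all 26 libraries, which sum to 999847 to 999887 per library over named entries. Tools listed in the submitters' processing notes are FastQC, STAR, HTSeq and RSEM, and both GRCh38 and GRCm38 are listed as builds; no version or order is stated. The labels do not say how A and B came to be separate libraries. Groups follow the titles and treatment labels, and the entry with no gene name was left out.

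Values were taken as log2(TPM + 1), with a pseudocount of 1, and libraries A and B were averaged. Genes with a mean of at least 1 TPM in at least 3 mice were kept (14079). One limma fit (limma 3.58.1, R 4.3.3, eBayes with trend) over all 13 mice gave the comparisons, and Benjamini-Hochberg adjusted p-values cover all genes tested. Log2 changes are relative to the median gene, since scaling moved that median by over 0.1, while SE and adjusted p are as fitted. CDK6, under the filter, was tested by exact permutation (scipy 1.17.1). The fit was tested on simulated data. Alternatives were pseudocounts of 0.1 and 0.5, no filter and a filter of 5 TPM, median-of-ratios scaling, quantile normalization, A or B libraries alone, a fit over 26 libraries with the mouse as a random effect, robust and trend-free eBayes, weights per mouse, only the 2 groups compared, and leaving out each mouse. The genes and lists were chosen with earlier results of these data known. The text names the 5 genes, genes of the lists, and the 5 genes most like CCND1, CDK4 and CCND3 over mice. RefSeq promoters of GRCh38.p14 and GENCODE 29 positions were used as given.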

Additional observations from a re-analysis of the deposited data

Results flagged for a closer look

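Of 96 sets of mice examined for a single mouse far from the rest, 2 were found, and both concern CDK4. Chance alone gives about 1 in 20, which over 96 sets is more than the 2 found. Vehicle mouse 1-6 had the highest CDK4 level of its group at 329.8 TPM, while the other 4 lay between 275.5 and 281.6 TPM. Its gap to the nearest of them was 0.888 of the group's range, above Dixon's critical value of 0.71. Resistant mouse 9-8 had the lowest CDK4 level of its group at 239.4 TPM, while the other 4 lay between 257.7 and 260.8 TPM, a gap of 0.855 of the range. Libraries A and B agreed on the place of each mouse. The call of CDK4 in resistant versus vehicle tumors was lost without either mouse (limma, adjusted p = 0.0530 and 0.0677). Sensitive mouse 6-4 also stood apart in CCND1, at 361 TPM against 450 and 449 TPM in mice 6-5 and 6-6. It was not among the 2 found.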

How the results depend on the processing

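CCND1 was called in the same direction in all 3 comparisons under each of the 26 alternatives, as was CCND3 in sensitive versus vehicle tumors (log2 change -0.66 to -0.54). For CCND1 the log2 change ran from 0.68 to 0.89 in sensitive versus vehicle, 0.69 to 0.92 in resistant versus sensitive and 1.49 to 1.69 in resistant versus vehicle tumors. TPM carry no counts, so the precision that depth gives is unknown, and 3 sensitive mice limit every comparison with them. The count of genes called in sensitive versus vehicle tumors was 4413 with weights per mouse, and 901 to 2417 on leaving out 1 mouse each (901 without mouse 6-5, 1074 without mouse 6-6). On leaving out 1 mouse it was 1468 to 3566 in resistant versus sensitive tumors (1468 without mouse 6-5, 1586 without mouse 6-4) and 5288 to 6386 in resistant versus vehicle tumors. With quantile normalization higher against lower calls were 938 and 989, 1461 and 1808, and 2330 and 2775.

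CDK4 lay so near 0 that its sign changed. In resistant versus sensitive tumors it was 0.006 with a pseudocount of 0.1 and with median-of-ratios scaling, 0.003 with a pseudocount of 0.5 and with the filter at 5 TPM, and 0.005 with A libraries alone. In resistant versus vehicle tumors it was 0.007 with A libraries alone, and its call was lost with median-of-ratios scaling (-0.025), quantile normalization (-0.047) and no trend (-0.038). Leaving out 1 mouse gave CDK4 -0.098 to 0.016 in sensitive versus vehicle, -0.024 to 0.037 in resistant versus sensitive and -0.061 to 0.031 in resistant versus vehicle tumors. CCND3 in resistant versus sensitive tumors was 0.493 with B libraries alone and 0.449 to 0.622 without 1 mouse. In resistant versus vehicle tumors CCND3 was 0.000 with quantile normalization, 0.015 with A libraries alone and -0.136 to 0.039 without 1 mouse. The difference of steps was -0.052 for CDK4 with quantile normalization and -0.015 to 0.135 without 1 mouse; for CCND1 it was -0.054 with quantile normalization, -0.080 with weights per mouse and -0.193 to 0.211 without 1 mouse; for CCND3 it was 1.036 to 1.22 without 1 mouse. The CDK6 difference in sensitive versus vehicle tumors was -0.005 with quantile normalization, -0.015 with A libraries alone and -0.030 to 0.078 without 1 mouse, and in resistant versus vehicle tumors -0.004 with A libraries alone. Apart from CDK4 in resistant versus vehicle tumors, these sign changes were in values not called, and the cause was not tested. No paired analysis was possible because mice of different groups share no number in the labels.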
